A study of Mus musculus with 9 samples.

Results

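The 10 genes described here encode proteins of hepatic lipid droplets, of fatty acid uptake and carriage, or of the control of these. They were chosen by name: the perilipins Plin2, Plin3, Plin4 and Plin5, the CIDE proteins Cideb and Cidec, the lipolysis inhibitor G0s2, the nuclear receptor Pparg, the fatty acid translocase Cd36 and the liver fatty acid binding protein Fabp1. All 10 were found among the 45513 genes of the count table, and all 10 passed the filter on low counts that left 12102 genes for testing. The material was liver of C57BL/6 mice, treated for 9 weeks and read by poly(A) RNA sequencing on an Ion Torrent Proton. Of the 9 libraries, 3 came from mice on a high fat diet given B-LGND2, 3 from mice on a high fat diet given vehicle, and 3 from mice on normal diet given vehicle. B-LGND2 is known here by its code name, and the series title calls the agent an estrogen receptor beta ligand. Every mouse of the B-LGND2 group was on the high fat diet, so no library shows the ligand on normal diet. The sources used here do not give dose, diet composition, age or sex.

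Hepatocytes store triglyceride in cytosolic droplets whose surface is covered by perilipins, which limit or direct access of lipases. CIDE proteins sit at contacts between droplets and promote their enlargement, and G0S2 blocks adipose triglyceride lipase. CD36 and the cytosolic carrier FABP1 handle fatty acids at entry and inside the cell. PPAR gamma drives droplet and uptake genes in fatty mouse liver, while PPAR alpha, which drives fatty acid oxidation, controls Fabp1, Plin2 and others as well. Levels below are counts per 1000000 (CPM) after library scaling by the trimmed mean of M-values. Fold changes, standard errors (SE) and adjusted p come from edgeR's quasi-likelihood test over all 9 libraries, with Benjamini-Hochberg adjustment over the 12102 genes and a threshold of 0.05.

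Of the 10 members, 2 passed the test, each in 1 comparison. Plin4 was 3.57-fold higher in high fat vehicle livers than on normal diet by the ratio of means, and Pparg stood in B-LGND2 livers at 0.322 of its level on normal diet. For diet, 1 of 10 members was called, where 2.99% of all genes tested were. For B-LGND2 against high fat vehicle, 0 of 10 were called by edgeR's quasi-likelihood test, where 5.63% of all genes were; 3 members had an unadjusted p under 0.05 (23.7% of all genes did), and DESeq2 and limma-voom each called 1, Plin4. For B-LGND2 livers against normal diet, 1 of 10 was called, where 2.93% of all genes were. The median log2 fold change of the members was 0.17, -0.32 and -0.12 in these comparisons, beside 0.01, -0.00356 and -0.00618 over all genes. In bulk liver, fewer cells of a type and less RNA per cell cannot be told apart.

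The libraries held 5778978 to 10322972 counts. rRNA gene models took 4.31% to 6.19% of counts in B-LGND2 libraries, 0.901% to 1.44% in high fat vehicle libraries and 3.16% to 3.74% in normal diet libraries. The high fat vehicle libraries also leaned towards long transcripts. Across genes, the rank correlation of transcript length with the deviation of a library from the mean was -0.238 to 0.132 in B-LGND2 libraries, 0.321 to 0.358 in high fat vehicle libraries and -0.516 to 0.187 in normal diet libraries. The same correlation with GC content did not overlap between groups. It was 0.0466 to 0.521 in B-LGND2 libraries, -0.0986 to -0.0184 in high fat vehicle libraries and -0.262 to -0.162 in normal diet libraries. B-LGND2 replicate 1 had the value of 0.521, beside 0.0825 and 0.0466 in the rest of its group. It also had the length value of -0.238 and the most counts. Within its group it was highest in Plin2, Plin5, Cideb, Cidec, G0s2 and Pparg, and not in Plin3, Plin4, Cd36 or Fabp1. The part of its GC lean in these levels was not tested. By longest transcript, Plin4 (5756 bases) is the longest of the 10 members and Fabp1 (553 bases) the shortest. The part of length in their values was not tested apart from GC content. With rRNA share as a covariate edgeR called neither Plin4 for diet (adjusted p = 0.109) nor Pparg for B-LGND2 against normal diet (0.0963). Their log2 fold changes in that fit were 3.425 and -3.56, beside 1.83 and -1.60 without the covariate. The rRNA shares do not overlap between groups, so this covariate is nearly a group term. Fold changes with joint offsets for length and GC content stand beside those of both genes. No batch is named in the labels, and a p-value here reflects library-to-library spread only, which may be technical in part.

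**Figure D1:**
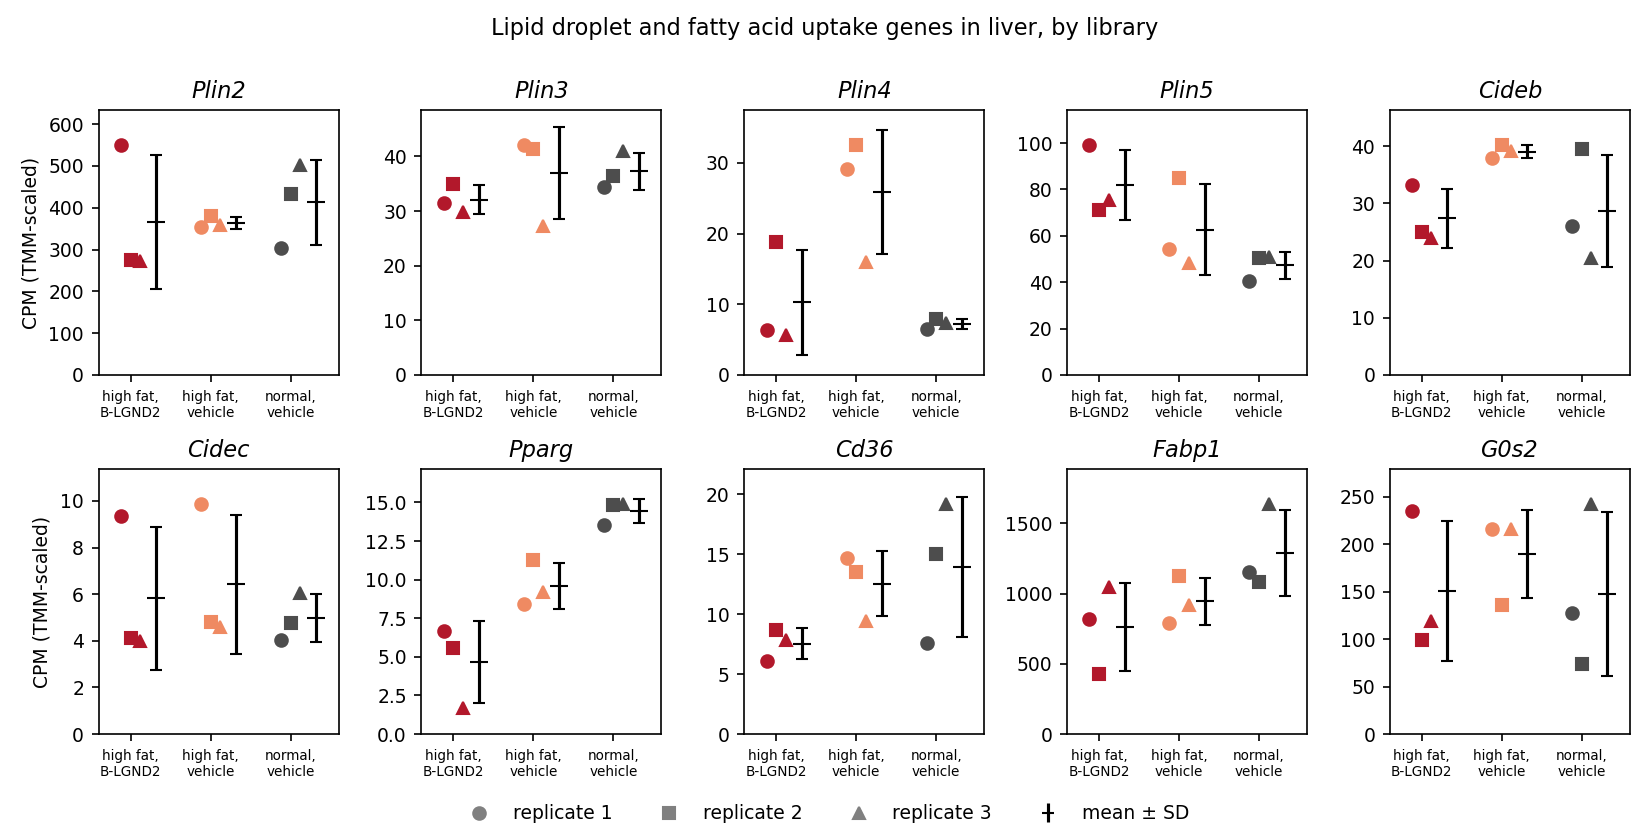
Level of each of the 10 genes in CPM (TMM-scaled) in the B-LGND2, high fat vehicle and normal diet libraries, with 1 point per library and the mean ± SD of 3 libraries as a black bar. Plin4 peaks in the high fat vehicle libraries, between 16.0 and 32.6 CPM, and Pparg stands lowest in the B-LGND2 libraries, at 1.66 to 6.70 CPM.

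Plin4, Plin5 and Plin3 lie in a row on the minus strand of chromosome 17 (GRCm38): Plin4 at chr17:56100591-56109803, Plin5 at chr17:56111601-56117596 and Plin3 at chr17:56277476-56292873. Plin4 and Plin5 are separated by 1797 bases, and Plin5 and Plin3 by 159879 bases. Because Plin4 gave 1 of the 2 calls and Plin5 is its nearest neighbour among the members, their promoters are shown, running 250 bases before to 50 after the start (RefSeq, GRCm38.p6, minus strand). Capitals mark AGGTCA, the core element of nuclear receptors such as the PPARs.
Plin4, chr17:56109733-56110032: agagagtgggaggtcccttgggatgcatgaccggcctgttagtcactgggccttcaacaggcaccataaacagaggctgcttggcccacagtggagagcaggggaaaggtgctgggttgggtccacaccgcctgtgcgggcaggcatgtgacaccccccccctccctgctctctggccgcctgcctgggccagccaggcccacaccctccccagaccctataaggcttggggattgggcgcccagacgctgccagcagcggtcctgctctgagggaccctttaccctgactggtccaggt
Plin5, chr17:56117499-56117798: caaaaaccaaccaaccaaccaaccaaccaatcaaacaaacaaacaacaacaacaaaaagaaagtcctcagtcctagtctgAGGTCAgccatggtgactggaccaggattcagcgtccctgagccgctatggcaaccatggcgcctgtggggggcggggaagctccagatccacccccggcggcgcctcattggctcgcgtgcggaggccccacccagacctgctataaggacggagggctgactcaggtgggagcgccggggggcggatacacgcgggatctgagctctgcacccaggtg
Of the 2 listed Plin5 starts the first is shown. Its promoter holds 1 core element, 170 bases before the start, that of the second holds 1 at 13 bases after it, and the Plin4 promoter holds none in this window. The core element occurred on either strand in 16.3% of 32851 mouse promoters of 300 bases.

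Plin4 encodes the perilipin best known from adipocytes and muscle, a long protein built of repeats that coats small droplets. It had 55, 128 and 34 counts in B-LGND2 libraries, 177, 217 and 115 in high fat vehicle libraries, and 42, 48 and 53 on normal diet. In CPM these were 6.35, 18.8 and 5.65 with B-LGND2, 29.1, 32.6 and 16.0 in high fat vehicle livers, and 6.54, 7.92 and 7.31 on normal diet. All high fat vehicle libraries lay above all normal diet libraries, while B-LGND2 replicate 2 lay within the range of the high fat vehicle group and the other B-LGND2 libraries did not. High fat vehicle livers averaged 25.9 ± 8.75 CPM against 7.26 ± 0.694 CPM on normal diet (SD, n = 3 each; log2 fold change 1.83, 95% interval 0.97 to 2.69, adjusted p = 0.0292 by edgeR). B-LGND2 livers averaged 10.3 ± 7.39 CPM, which against high fat vehicle gave -1.33 ± 0.39 as log2 fold change ± SE (edgeR adjusted p = 0.0578, not passed).

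The calls of both Plin4 contrasts changed when single libraries were left out. With offsets for length and GC content the diet value was 1.29 (adjusted p = 0.157 by edgeR) and the ligand value -1.25 (0.109). The diet call was also lost without normal diet replicate 2 (adjusted p = 0.0739) or 3 (0.131) and without high fat vehicle replicate 1 (0.104) or 2 (0.114), at log2 fold changes of 1.63 to 1.90. Without B-LGND2 replicate 2 the ligand contrast passed by edgeR, at -2.08 (adjusted p = 0.00897), and it passed at -1.34 without normal diet replicate 1 (0.0470). Against normal diet the B-LGND2 value was 0.50 (0.535), and it was -0.27 without B-LGND2 replicate 2. Plin4 shares 17 exon bases with Hdgfl2 on the opposite strand, 0.294% of its exon bases.

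Adipocyte and muscle genes were read in the same libraries, since both cell types carry Plin4. Of 8 adipocyte markers, Adipoq had 0, 1 and 3 counts with B-LGND2, 3, 1 and 0 in high fat vehicle livers, and 0, 0 and 16 on normal diet. Plin1, the adipocyte perilipin, had 6, 0 and 1 counts with B-LGND2, 2, 0 and 0 in high fat vehicle livers, and 0, 0 and 10 on normal diet. Normal diet replicate 3 had the most counts of both genes. Lep had 1 count in each of 2 libraries. Cfd had 3, 1 and 1 counts with B-LGND2, 5, 10 and 10 in high fat vehicle livers, and 1, 2 and 25 on normal diet. The summed level of the 8 markers was 20.7 to 26.6 CPM with B-LGND2, 31.8 to 43.4 CPM in high fat vehicle libraries and 26.2 to 34.5 CPM on normal diet, mostly from Lipe, which liver also expresses. It was lower in every B-LGND2 library than in every high fat vehicle library. Of the 3 markers tested, 0 were called in any comparison by edgeR, with 2 under an unadjusted p of 0.05 for B-LGND2 against high fat vehicle. Of 8 striated muscle markers, 5 had no count in any library (Ckm, Myh1, Myh4, Myh6 and Myl2), and the sum reached at most 0.690 CPM. The part of these cells in the Plin4 values was not tested. The 8 hepatocyte markers summed to 78776 to 120556 CPM over all 9 libraries, with the highest sum in B-LGND2 replicate 1. For B-LGND2 against high fat vehicle, 1 of them, Apoa1, rose, where 5.63% of all genes were called. In that comparison 3 of the 8 were positive and 5 negative, with a median log2 fold change of -0.26. An unadjusted p under 0.05 by edgeR was reached by 4 of the 8 and by 23.7% of all genes.

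Plin5, the perilipin of oxidative tissues that ties droplets to mitochondria, had its highest mean in B-LGND2 livers. It stood at 99.2, 71.1 and 75.4 CPM with B-LGND2, 54.3, 85.1 and 48.4 CPM in high fat vehicle livers, and 40.6, 50.3 and 50.8 CPM on normal diet. All B-LGND2 libraries were above all normal diet libraries, and the high fat vehicle group overlapped both. Against normal diet the B-LGND2 group had 0.79 ± 0.25 as log2 fold change ± SE (edgeR adjusted p = 0.0919, not passed). DESeq2 called it (0.0498), as did edgeR with no filter (0.0492), 2 of 12 alternatives that kept every library of the 2 groups. With the offsets for length and GC content the value was 0.55 (adjusted p = 0.183 by edgeR). Against high fat vehicle the value was 0.39 (adjusted p = 0.345), and high fat vehicle against normal diet gave 0.41 (0.344).

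Plin2 (chr4:86648386-86670060), the coat protein of nearly all hepatocyte droplets, and Plin3, a perilipin that exchanges between cytosol and droplets, did not pass in any comparison. Plin2 had 550, 274 and 272 CPM with B-LGND2, 353, 380 and 358 CPM in high fat vehicle livers, and 303, 432 and 502 CPM on normal diet. The groups overlapped, and the 3 high fat vehicle libraries were the closest together. The log2 fold change of Plin2 was -0.18 for diet (95% interval -0.76 to 0.40) and 0.01 for B-LGND2 against vehicle (-0.57 to 0.58). Plin3 ran from 27.3 to 42.1 CPM over all 9 libraries, with log2 fold changes of -0.02 for diet and -0.20 for the ligand. Against normal diet, B-LGND2 livers gave -0.18 for Plin2 and -0.22 for Plin3.

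Because these genes share a library, their make-up does not depend on how libraries are scaled. Per kilobase of longest transcript, Plin2 made up 77.7% ± 4.56 of the summed level of the 4 perilipins with B-LGND2, 80.9% ± 3.73 in high fat vehicle livers and 85.8% ± 1.86 on normal diet (SD, n = 3 each). Plin5 took 14.2%, 18.5% and 19.9% with B-LGND2, 11.8%, 16.4% and 10.9% in high fat vehicle livers, and 10.7%, 9.53% and 8.41% on normal diet. Each library of either high fat group was above every normal diet library in Plin5 share, by as little as 10.9% against 10.7%. With the median transcript length in place of the longest, Plin5 averaged 7.55% with B-LGND2, 5.49% in high fat vehicle livers and 3.87% on normal diet. Plin4 took 0.838% ± 0.740 with B-LGND2, 1.86% ± 0.541 in high fat vehicle livers and 0.509% ± 0.0877 on normal diet. Plin5 had 15.6, 3.78 and 13.4 counts for each count of Plin4 with B-LGND2, 1.86, 2.61 and 3.03 in high fat vehicle libraries, and 6.21, 6.35 and 6.94 on normal diet. All 3 high fat vehicle libraries had a lower value of this ratio, chosen after the values were seen, than each of the other 6 libraries. Shares and ratios do not remove a lean towards long transcripts, which the high fat vehicle libraries had. By longest transcript Plin4 has 5756 bases and Plin5 has 1986, and the part of length in these shares and ratios was not tested.

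**Figure D2:**
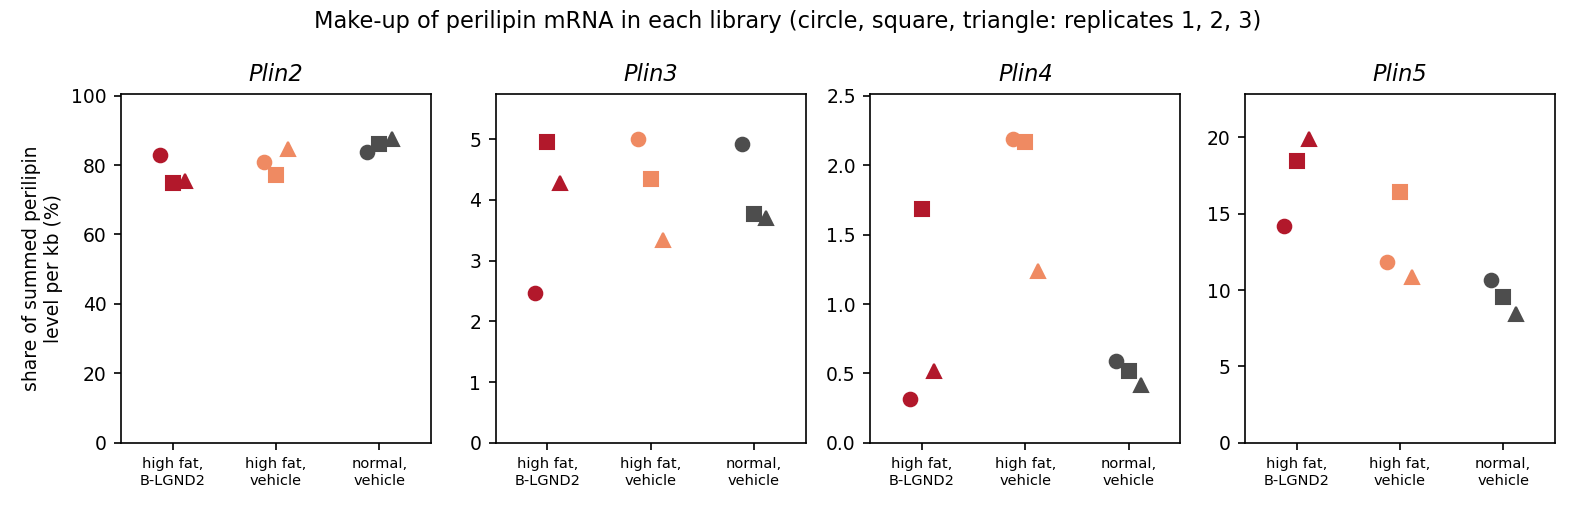
Share of each perilipin in the summed level per kb of Plin2, Plin3, Plin4 and Plin5, in percent, for each B-LGND2, high fat vehicle and normal diet library. Plin2 holds 74.9% or more in every library, Plin4 peaks at 2.19% in a high fat vehicle library and Plin5 at 19.9% in a B-LGND2 library.

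Of the genes that enlarge droplets or restrain lipolysis, Cidec, Cideb and G0s2, none passed in any comparison by edgeR, and each had an unadjusted p above 0.05 throughout. Cidec (chr6:113424634-113435760), also called Fsp27, promotes fusion into large droplets and is a target of PPAR gamma in mouse liver. It had 81, 28 and 24 counts with B-LGND2, 60, 32 and 33 in high fat vehicle livers, and 26, 29 and 44 on normal diet. The groups overlapped throughout, with replicate 1 of each high fat group the highest (9.36 CPM with B-LGND2 and 9.87 CPM with vehicle, beside 3.99 to 4.80 CPM in the other high fat libraries). Its log2 fold change was 0.36 for diet (95% interval -0.51 to 1.22) and -0.11 for the ligand (-0.97 to 0.74), and 0.24 for B-LGND2 against normal diet. With the offsets for length and GC content these values were 0.52, -0.43 and 0.09.

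Cideb, the CIDE protein of hepatocytes, with a part in very low density lipoprotein lipidation, had 33.3, 25.0 and 23.9 CPM with B-LGND2, 37.8, 40.2 and 39.1 CPM in high fat vehicle livers, and 26.0, 39.4 and 20.4 CPM on normal diet. All B-LGND2 libraries were below all high fat vehicle libraries (a log2 change of -0.51, SE 0.25, which edgeR did not call at an adjusted p of 0.237). With the offsets for length and GC content the value was -0.80 (adjusted p = 0.0780 by edgeR). Of the exon bases of Cideb (chr14:55754050-55758458), 76.3% are shared with Nop9, a gene on the opposite strand, and whether counting used strand is unknown. Nop9 stood at 0.60 for the ligand and -0.48 for diet, the opposite signs to Cideb, and did not pass in either comparison by edgeR. Cideb itself gave 0.45 for diet and -0.06 for B-LGND2 against normal diet, or 0.77 and -0.03 with the offsets. Because of the shared exon bases, and not of these signs, reads of Cideb and Nop9 may not be told apart. How reads of the shared bases were counted is not known.

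G0s2 (chr1:193272161-193273217) had 235, 99.1 and 119 CPM with B-LGND2, 217, 136 and 216 CPM in high fat vehicle livers, and 127, 73.9 and 242 CPM on normal diet. The groups overlapped fully, and the normal diet libraries spread widest (SD 86.2 CPM around a mean of 148). Its log2 fold change was 0.36 for diet (SE 0.40) and -0.33 for the ligand (SE 0.40), and 0.03 for B-LGND2 against normal diet. With the offsets for length and GC content the values were larger, at 0.93 for diet (adjusted p = 0.102 by edgeR) and -0.82 for the ligand (0.0918). Against normal diet B-LGND2 livers then gave 0.10. For each count of its target lipase gene Pnpla2, a ratio chosen after the values were seen, G0s2 had 0.857 to 1.87 counts with B-LGND2, 1.05 to 2.28 in high fat vehicle livers and 0.905 to 2.94 on normal diet.

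Pparg was the member that separated all 3 groups. It had 58, 38 and 10 counts with B-LGND2, 51, 75 and 66 in high fat vehicle livers, and 87, 90 and 108 on normal diet. In CPM these were 6.70, 5.58 and 1.66 with B-LGND2, 8.39, 11.3 and 9.18 in high fat vehicle livers, and 13.5, 14.9 and 14.9 on normal diet. By these CPM values no library of a group overlapped another group. B-LGND2 libraries were lowest, high fat vehicle libraries between, and normal diet libraries highest. The share of all genes that separate all 3 groups is not given here. Libraries of the groups did not overlap in 2 of 10 members for diet (30.1% of all genes), in 3 of 10 for B-LGND2 against vehicle (33.6%) and in 3 of 10 for B-LGND2 against normal diet (20.5%).

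Pparg fell in B-LGND2 livers relative to normal diet, with 4.65 ± 2.65 CPM against 14.4 ± 0.774 CPM (SD, n = 3 each; -1.60 ± 0.36 as log2 fold change ± SE, edgeR adjusted p = 0.0273, lower in 3 of 3 libraries). It did not pass in the comparisons that make up this one: B-LGND2 against high fat vehicle gave -1.02 (SE 0.37, adjusted p = 0.105) and high fat vehicle against normal diet -0.59 (SE 0.35, adjusted p = 0.338). B-LGND2 replicate 3, at 10 counts, has an exact 95% Poisson interval of 0.797 to 3.06 CPM, which covers counting error only. The call was lost without normal diet replicate 2 (adjusted p = 0.0896 by edgeR), without B-LGND2 replicate 2 (0.0554) and with only the 2 groups in the fit (0.0590), at log2 fold changes of -1.59 to -1.74. With the offsets for length and GC content it was kept at -1.54 (0.0233).

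The first annotated start of Pparg (chr6:115360951-115490399, plus strand) is shown because the gene gave 1 of the 2 calls. Its promoter is from RefSeq on GRCm38.p6, with the same window as above, and capitals again mark AGGTCA.
Pparg, chr6:115360894-115361193: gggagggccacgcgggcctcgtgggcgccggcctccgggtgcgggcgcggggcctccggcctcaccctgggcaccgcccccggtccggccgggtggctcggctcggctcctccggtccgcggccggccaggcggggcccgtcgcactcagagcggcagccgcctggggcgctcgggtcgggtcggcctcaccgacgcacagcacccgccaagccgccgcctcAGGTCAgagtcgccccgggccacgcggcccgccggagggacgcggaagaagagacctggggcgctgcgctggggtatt
This promoter holds 1 core element, 28 bases before the start, and that of the second of 3 listed starts holds 1 at 9 bases before it. The counts per gene do not separate the transcripts that begin at these starts.

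Ppara, the oxidation regulator, rose on the high fat diet under vehicle, where Pparg did not pass. The ratio of the counts of these genes, chosen after their values were seen, was 14.3, 18.3 and 91.5 counts of Ppara per count of Pparg with B-LGND2, 25.2, 19.8 and 18.9 in high fat vehicle livers, and 7.59, 6.79 and 3.16 on normal diet. Every high fat library was above every normal diet library in this ratio, whichever the treatment. Ppara averaged 203 ± 26.2 CPM on high fat diet with vehicle against 83.5 ± 31.6 CPM on normal diet (1.28 ± 0.28 as log2 fold change ± SE, edgeR adjusted p = 0.0289). That call was lost in each fit that left out a high fat vehicle library, normal diet replicate 2 or normal diet replicate 3, with an adjusted p of up to 0.108.

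Cd36 (chr5:17781690-17888801), a scavenger receptor and fatty acid translocase that macrophages and endothelial cells also carry, was among the 4 lowest members per kilobase of transcript in every group. It had 53, 59 and 47 counts with B-LGND2, 89, 90 and 68 in high fat vehicle livers, and 49, 91 and 139 on normal diet. In CPM these were 6.12, 8.66 and 7.81 with B-LGND2, 14.6, 13.5 and 9.46 in high fat vehicle livers, and 7.63, 15.0 and 19.2 on normal diet. All B-LGND2 libraries were below all high fat vehicle libraries, while normal diet ranged over both. B-LGND2 livers averaged 7.53 ± 1.29 CPM against 12.5 ± 2.73 CPM with vehicle (-0.74 ± 0.33 as log2 fold change ± SE, edgeR adjusted p = 0.187, not passed). The diet value was -0.16, and it turned to 0.01 without scaling and 0.08 with the offsets. Against normal diet the B-LGND2 value was -0.89 (adjusted p = 0.151), and it passed at -1.19 without normal diet replicate 1 (0.0293 by edgeR). That was 1 of 9 fits with a library left out, and with the offsets the value was -0.41 (0.481 by edgeR).

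Markers of macrophages and endothelial cells summed higher in every B-LGND2 library than in any other, while Cd36 and Pparg had their lowest mean levels there; stellate cell markers overlapped between groups. The 14 macrophage and Kupffer cell markers summed to 1270 to 1604 CPM with B-LGND2, 400 to 515 CPM in high fat vehicle libraries and 406 to 656 CPM on normal diet, and 10 of 14 rose by edgeR against either vehicle group. The 11 endothelial markers summed to 364 to 436 CPM with B-LGND2, 247 to 306 CPM with vehicle and 261 to 323 CPM on normal diet, and 1 of 11 rose against high fat vehicle and 3 of 11 against normal diet. The 10 stellate cell markers summed to 168 to 270 CPM with B-LGND2, 156 to 183 CPM with vehicle and 153 to 188 CPM on normal diet, and 0 of 10 were called by edgeR against either, with 3 under an unadjusted p of 0.05 against high fat vehicle and 4 against normal diet. Of all genes tested, 5.63% were called against high fat vehicle and 2.93% against normal diet, and 23.7% and 19.4% had an unadjusted p under 0.05. No marker of these 3 lists was at 0 in all libraries. The part of these cells in the Cd36 and Pparg values was not tested.

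Fabp1 (chr6:71199827-71205023), the main cytosolic fatty acid carrier of hepatocytes, held 44.0% to 66.0% of the counts of the 10 genes with B-LGND2, 50.9% to 60.2% in high fat vehicle livers and 61.5% to 67.1% on normal diet. It is a classical PPAR alpha target in rodents, and its promoter was the only one of the 14 listed for the 10 genes to match NGGNCA and AGGNCA with 1 free base between, a relaxed form of the direct repeat that PPAR and RXR bind. The sequence is shown for that match (RefSeq, GRCm38.p6, plus strand, same window). Capitals mark that match, which contains a core element, and a second core element closer to the start.
Fabp1, chr6:71199629-71199928: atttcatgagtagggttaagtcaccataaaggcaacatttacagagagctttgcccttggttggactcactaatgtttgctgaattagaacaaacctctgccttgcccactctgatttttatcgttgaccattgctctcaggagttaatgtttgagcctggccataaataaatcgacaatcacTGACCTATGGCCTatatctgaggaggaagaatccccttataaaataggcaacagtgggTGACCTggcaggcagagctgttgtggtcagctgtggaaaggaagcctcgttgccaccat
The match begins 67 bases before the start and lies on the minus strand. In the printed plus strand it therefore appears as its reverse complement, TGACCTATGGCCT. The core elements likewise appear as TGACCT, the reverse complement of AGGTCA. The relaxed motif was found in 0.798% of the 32851 promoters and the strict form, AGGTCA repeated with 1 free base between, in 0.0396%, both strands searched, and no member promoter held the strict form in this window. Core elements stood in 7 of the 14 promoters, those of Plin2, Plin5, Pparg, Cd36 and Fabp1.

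Fabp1 had 816, 426 and 1044 CPM with B-LGND2, 794, 1125 and 921 CPM in high fat vehicle livers, and 1150, 1080 and 1638 CPM on normal diet. All B-LGND2 libraries were below all normal diet libraries, with high fat vehicle overlapping both. Against normal diet the B-LGND2 value was -0.76 (SE 0.29, adjusted p = 0.167 by edgeR, not passed) or -0.34 with the offsets. Against high fat vehicle the B-LGND2 value was -0.31 (0.535 by edgeR) or -0.64 with the offsets (0.124). The diet value of -0.45 (adjusted p = 0.380) turned to 0.31 with the offsets for length and GC content (0.541) and is given no direction here.

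**Figure D3:**
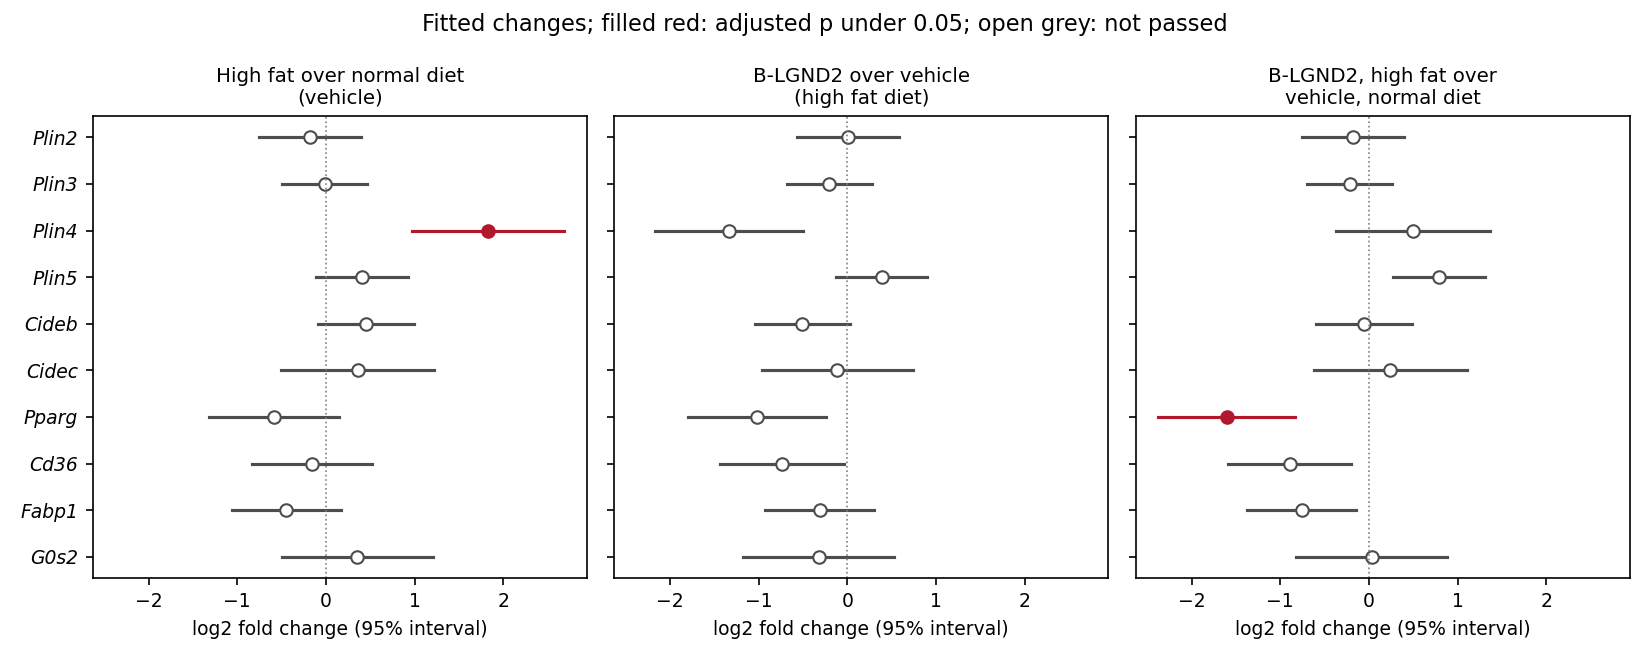
Log2 fold change with its 95% interval for each gene in high fat over normal diet, B-LGND2 over high fat vehicle, and B-LGND2 on high fat diet over vehicle on normal diet. Filled red points passed an adjusted p of 0.05: Plin4 at 1.83 for diet and Pparg at -1.60 for B-LGND2 over normal diet.

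Per kilobase of longest transcript, which allows levels of different genes to be compared, Fabp1 led in every group with 1378 ± 566 CPM per kb with B-LGND2, 1712 ± 302 in high fat vehicle livers and 2332 ± 549 on normal diet. Plin2 and G0s2 came next in each group and overlapped each other by this length. Plin5 and Cideb followed: they overlapped in both vehicle groups, and with B-LGND2 every library had more Plin5, at 41.2 ± 7.64 CPM per kb against 22.6 ± 4.23 for Cideb. Plin3 was sixth in each group, and did not overlap the gene above or below it. Pparg, Plin4, Cidec and Cd36 took the last 4 places in every group, and their order depended on the transcript length used. Pparg stood at 2.19 ± 1.25 CPM per kb with B-LGND2, 4.52 ± 0.696 in high fat vehicle livers and 6.79 ± 0.364 on normal diet. Plin4 stood at 1.78 ± 1.28 with B-LGND2, 4.50 ± 1.52 in high fat vehicle livers and 1.26 ± 0.121 on normal diet. With the longest transcript Pparg was ninth with B-LGND2 and seventh in both vehicle groups, and Plin4 was eighth in high fat vehicle livers and last in the other groups. With the median transcript length, an alternative chosen after seeing the data, Pparg was seventh and Plin4 last in every group, at 5.08 ± 2.89 CPM per kb for Pparg with B-LGND2, and Plin2 lay above G0s2 without overlap. By longest transcript, neighbours among the last 4 overlapped in both high fat groups, while on normal diet only Cd36 and Cidec did.

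**Figure D4:**
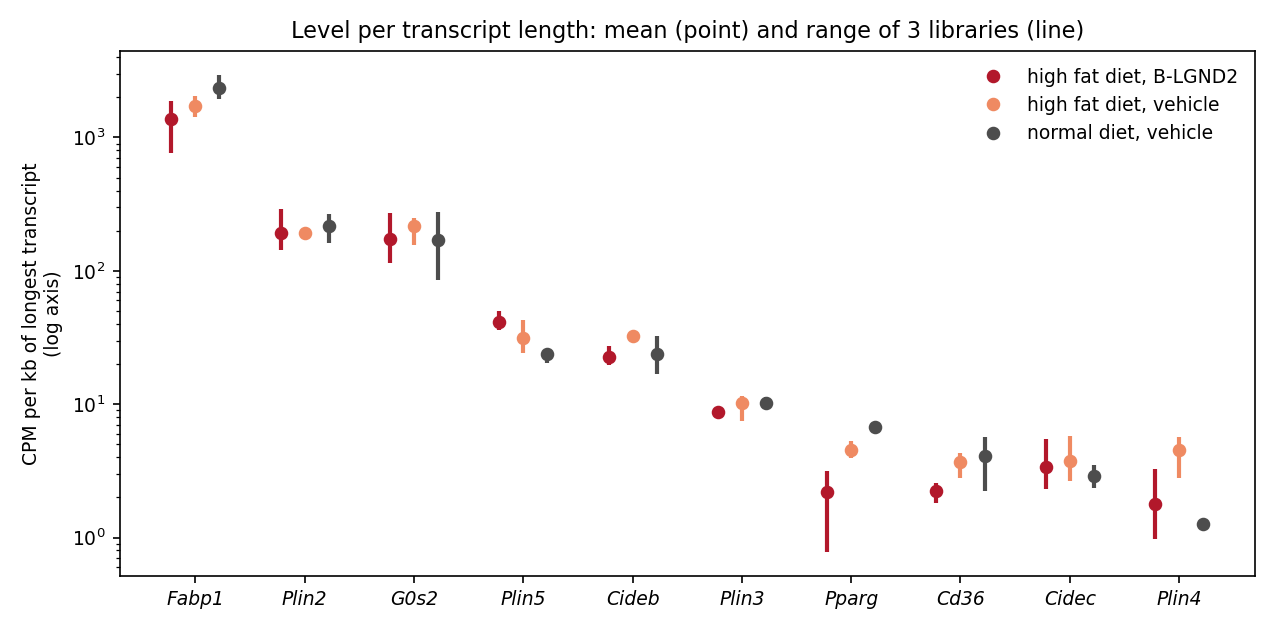
Level per kb of longest transcript on a log axis for each gene in the B-LGND2, high fat vehicle and normal diet groups, as the mean (point) and range (line) of 3 libraries. Fabp1 stands highest at 1378 to 2332 CPM per kb, and Pparg, Plin4, Cidec and Cd36 stand lowest in every group.

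Around the members, other genes of the pathway were read in the same fit from 3 lists: other lipid droplet and lipolysis genes (19 of 23 tested), other genes of fatty acid uptake, activation and binding (18 of 21), and the PPAR family, its partners and targets (30 of 34). For diet, 0 of 19 droplet genes were called by edgeR, with 3 under an unadjusted p of 0.05. Of all genes tested, 2.99% were called for diet and 22.4% had an unadjusted p under 0.05. In the uptake list Scp2, a carrier of sterols and fatty acyl groups, rose to 604 ± 26.3 CPM on high fat diet, against 301 ± 88.2 CPM on normal diet (log2 fold change 1.00, adjusted p = 0.0333). Dbi, the acyl-CoA binding protein, fell to 205 ± 27.3 CPM against 520 ± 263 CPM (-1.34, 0.0289), and Lpl, the lipase that frees fatty acids from lipoproteins, also fell (-2.39, 0.00130). Lpl had 16, 25 and 16 counts in high fat vehicle libraries and 126, 79 and 91 on normal diet. In the PPAR list Ppara rose, while the omega-hydroxylase gene Cyp4a10 (-1.89, 0.0382) and the malic enzyme gene Me1 (-1.87, 0.0484) fell. With the offsets the calls of Dbi (-0.61, 0.110), Cyp4a10 (-1.71, 0.116) and Me1 (-1.80, 0.101) were lost. Lpl kept its call whichever library was left out; Dbi, Scp2, Cyp4a10 and Me1 each lost theirs without normal diet replicate 3 (adjusted p of 0.102, 0.103, 0.237 and 0.278) or high fat vehicle replicate 1 or 3. Dbi, Scp2 and Me1 also lost theirs without replicate 2 of either of these groups, and Me1 without B-LGND2 replicate 1 (0.0536). The median log2 fold change was -0.08 over the droplet list, 0.02 over uptake and 0.34 over the PPAR list, beside 0.01 over all genes, with 22 of 30 PPAR list genes positive.

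With B-LGND2 the called genes of the uptake list included genes of fatty acid entry and activation. Slc27a2, a fatty acid transporter and very long chain acyl-CoA synthetase, fell to 616 to 794 CPM, against 1216 to 1313 CPM with vehicle (a log2 change of -0.90, SE 0.22, edgeR adjusted p = 0.0258). Acsl1, the main long chain acyl-CoA synthetase of liver, chosen here after its values were seen, fell to 405 to 648 CPM, against 775 to 1130 CPM (-0.91, 0.0487). Scp2 fell to 239 to 295 CPM against 573 to 620 CPM (-1.19, 0.0114). Fabp5, a fatty acid binding protein of macrophages and epithelia, rose to 6.11 ± 2.85 CPM with B-LGND2 against 1.37 ± 0.655 CPM (2.11, 0.0231), and Lpl rose as well (1.28, 0.0335). In all, 2 of 18 uptake genes rose and 3 fell, with a median of -0.26, where 5.63% of all genes were called in either direction. Slc27a2, Fabp5 and Lpl lost their calls without each high fat vehicle library in turn or without B-LGND2 replicate 1 or 3, with an adjusted p of up to 0.136. Acsl1 lost its call in these fits, without normal diet replicate 2 (up to 0.167) and with the offsets (0.0780), and Scp2 without high fat vehicle replicate 2 (0.0528) or B-LGND2 replicate 1 (0.0583). Counts in the high fat vehicle libraries were low, at 4, 10 and 14 for Fabp5 and 16, 25 and 16 for Lpl. Fabp5 and Lpl are also expressed by macrophages, whose markers were higher in the B-LGND2 libraries, and the part of these cells in their values was not tested.

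Among the other droplet genes, 3 of 19 fell with B-LGND2 and none rose, with a median log2 fold change of -0.05. Of all genes tested, 5.63% were called in this comparison. Hsd17b13, a liver droplet protein, fell to 74.3 ± 18.7 CPM against 143 ± 13.5 CPM (-0.95, SE 0.22, adjusted p = 0.0246 by edgeR). Ces1d, a carboxylesterase with triglyceride hydrolase activity, fell to 156 ± 51.3 CPM against 380 ± 59.6 CPM (-1.28, 0.0105), and Ces1g, another member of the cluster, to 43.9 ± 12.0 against 99.3 ± 9.70 CPM (-1.17, 0.0105). Reads may be split between near-identical Ces1 copies. Both Ces1 calls were lost without high fat vehicle replicate 2 (0.0622), and that of Hsd17b13 without each high fat vehicle library in turn or B-LGND2 replicate 1 or 3 (up to 0.117). In the PPAR list 1 of 30 was called, where 5.63% of all genes were. This was the uncoupling protein gene Ucp2, which rose to 48.6 ± 15.5 CPM against 21.1 ± 1.76 CPM (1.21, 0.0182). Of the 30 genes, 23 were negative, with a median of -0.29. Macrophages also express Ucp2, their markers were higher in the same libraries, and their part in its value was not tested. The Ucp2 call was lost without each high fat vehicle library in turn or B-LGND2 replicate 1 (up to 0.0975). Against normal diet, 2 of 19 droplet genes and 1 of 18 uptake genes were called lower in B-LGND2 livers. Of the 30 PPAR list genes, 1 was called lower and 1 higher. Of all genes tested, 2.93% were called in this comparison. B-LGND2 livers had lower Hsd17b13 (-0.96), Ces1g (-1.49), the acyl-CoA synthetase gene Acsl5 (-0.92) and Cyp4a10 (-2.67) and higher Ucp2 (1.26). The edgeR adjusted p of these genes ran from 0.00227 to 0.0414. Of these, Ces1g kept its call whichever library was left out; Cyp4a10 lost its call without normal diet replicate 3 (0.0681), Ucp2 without normal diet replicate 2 or B-LGND2 replicate 1 (up to 0.0861), Hsd17b13 without normal diet replicate 2, each high fat vehicle library in turn or B-LGND2 replicate 1 or 3 (up to 0.126) and with the offsets (-0.65, 0.103), and Acsl5 without each library in turn other than normal diet replicate 1 (up to 0.152). The comparisons share the high fat vehicle or the normal diet libraries, so their values are not independent of each other.

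**Figure D5:**
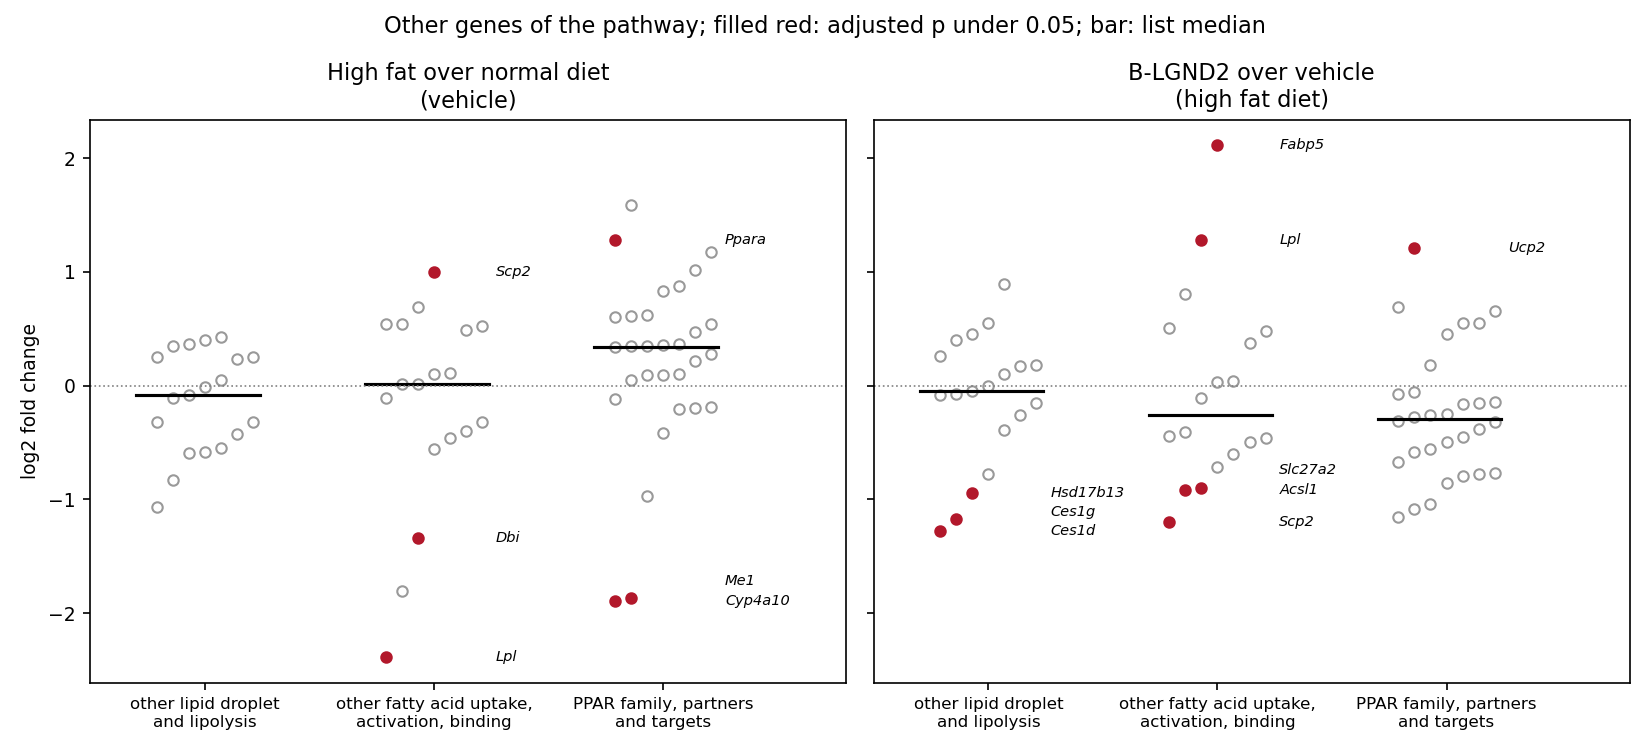
Log2 fold change of the other tested genes of the pathway in 3 lists, for high fat over normal diet under vehicle and for B-LGND2 over vehicle on high fat diet. Filled red points with names passed an adjusted p of 0.05 and the bar is the list median, which for the PPAR list is 0.34 for diet and -0.29 for B-LGND2.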

How the data were processed

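Liver poly(A) RNA of 9 libraries was measured. The authors deposited raw read counts per gene, as whole numbers. Tools named in the submitters' processing notes are HTSeq 0.6.1p1, TopHat2 2.0.13 with Bowtie2 2.2.4, DESeq2 1.6.3 and SAMtools 0.1.19, and the build GRCm38.p3. Annotation release, counting mode and strand use: not given in the sources used here. Groups follow the labels, 3 libraries each; no 2 libraries agreed within sampling noise (lowest chi-square per degree of freedom 12.9).

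Counts were filtered with filterByExpr (minimum count 10) and TMM-scaled. They were tested with edgeR 4.0.16 (quasi-likelihood, robust, all 9 libraries, 6 residual degrees of freedom) in R 4.3.3, with 3 contrasts; the code was tested on simulated data. At these depths Poisson intervals cover counting error only. Alternatives included DESeq2 1.42.0, limma-voom (limma 3.58.1), scaling, filters, a replicate block, offsets for length and GC content, rRNA share as a covariate, and each library left out. Gene models came from GENCODE M21 and promoters from RefSeq (GRCm38.p6). All 10 members are named, and from each pathway list up to 4 called genes with the smallest p per contrast; marker lists (hepatocyte, adipocyte, macrophage, endothelial, stellate, muscle) are summed. Members and lists were chosen with earlier results of these data known.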

Additional observations from a re-analysis of the deposited data

How the results depend on the processing

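For diet, the count of members called was 1; it was 0 with length and GC offsets and with rRNA share as covariate, and 0 to 1 with 1 library left out. For B-LGND2 against high fat vehicle it was 0; it was 1 with no scaling, DESeq2's Wald test, limma-voom or the replicate block, 2 with no filter, and 0 to 1 with 1 library left out. For B-LGND2 against normal diet it was 1; it was 3 with no filter, 2 with DESeq2, 0 with the rRNA covariate and with only the 2 groups compared, and 0 to 2 with 1 library left out. Calls among list genes numbered 6, 9 and 5 in these comparisons. With no filter they numbered 10, 14 and 11; with the rRNA covariate 0, 0 and 0; with only 2 groups 2, 15 and 3; with DESeq2 14 and 8 for the 2 B-LGND2 comparisons; and with the block or the offsets 3 for diet. With 1 library left out they ran from 1 to 14, 0 to 15 and 2 to 8. The rRNA shares do not overlap between groups, so that covariate is nearly a group term. Calls over all genes moved as well. With the offsets 139 were higher and 89 lower for diet (182 and 180 in the main fit). They were 451 and 457 for B-LGND2 against high fat vehicle (371 and 310), and 212 and 129 against normal diet (193 and 161). For most other settings the calls over all genes are not given here, so the counts above cannot be set against them.

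Signs reversed as follows on the log2 scale. For diet, the offsets gave Plin2 0.0060, Cd36 0.0815 and Fabp1 0.31; no scaling gave Plin3 0.15 and Cd36 0.0119; the rRNA covariate gave Plin2 0.51, Plin3 0.32, Pparg 1.27, Cd36 0.11 and Me1 0.057. With 1 library left out Plin3 ran from -0.12 to 0.17, Cidec from -0.0834 to 0.55 and Cd36 from -0.45 to 0.15. For B-LGND2 against high fat vehicle, Plin2 was -0.21 with no scaling, -0.0076 with no filter, -0.0016 with at least 50 counts in 3 libraries, -0.0777 with limma-voom, -0.0222 with the block, -0.17 with the offsets, -1.34 with the rRNA covariate and -0.39 to 0.20 with 1 library left out. The rRNA covariate gave Plin5 -0.20 and Fabp1 1.496, and Cidec ran from -0.63 to 0.32 with 1 library left out. For B-LGND2 against normal diet, the rRNA covariate gave Plin4 -1.15, Cidec -0.79, Fabp1 0.10 and G0s2 -0.15; with 1 library left out Plin4 ran from -0.27 to 0.78, Cideb from -0.25 to 0.24, Cidec from -0.29 to 0.45 and G0s2 from -0.43 to 0.58. The cause was not tested. Of the other values of single genes, 869 kept direction and side of the threshold, 123 lost it and 12 gained it.

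With median transcript lengths the perilipin shares with B-LGND2 were 89.2% for Plin2 and 7.55% for Plin5; in high fat vehicle livers 90.6% for Plin2, 3.08% for Plin3, 0.786% for Plin4 and 5.49% for Plin5; and on normal diet 93.0%, 2.91%, 0.207% and 3.87% for the same genes. With no scaling the median of all genes moved to 0.17 for diet and -0.18 for the ligand, and calls split 260 higher and 98 lower (182 and 180 with TMM) and 213 and 469 (371 and 310). Over all genes tested, deviations of same-numbered libraries from their group means had correlations of -0.193 to 0.124. Such correlations cannot exclude that equal numbers mark a pairing, which the labels do not state. With the replicate block Plin4 reached -1.44 for the ligand (adjusted p = 0.0325 by edgeR). Low counts limit Pparg, Plin4, Cidec and Cd36, and also Fabp5 and Lpl of the uptake list.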
